A study of Mus musculus with 18 samples.

Results

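Genes of meiotic prophase were followed in mouse testis, brain and liver after chronic restraint stress. The 34 genes were named by symbol and cover the synaptonemal complex, meiotic recombination and meiotic cohesin. Of the 34932 genes in the deposited table, 33 matched them by Ensembl identifier, and Spata22 is not analysed here. RNA sequencing libraries came from stress testis, control testis, stress brain, control brain, stress liver and control liver, with 3 biological replicates in each of the 6 groups. Stress mice underwent chronic restraint stress, in which an animal is repeatedly held confined, and control mice did not. Strain, age, sex and the schedule of the restraint were not given in the sources used here. Brain is the name of the tissue in the sample labels, although their text on RNA extraction names hippocampus, and stress brain replicate 3 carries a control code in its description.

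Meiotic prophase is the long stage in which spermatocytes pair their homologous chromosomes and exchange DNA between them before the first meiotic division. Cohesin and axis proteins organise each chromosome into loops, programmed DNA breaks are made and repaired on the homologue by strand exchange, and the synaptonemal complex zips the homologues together while some exchanges mature into crossovers. In the adult testis these genes are read mainly in spermatocytes, next to spermatogonia, spermatids and somatic cells. In bulk tissue, fewer cells of a type and less RNA per cell cannot be told apart.

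Total counts ranged from 28.51 to 33.48 megacounts in stress testis, from 27.85 to 31.38 in control testis, from 32.08 to 34.08 in stress brain, from 32.38 to 36.5 in control brain, from 29.95 to 33.2 in stress liver and from 31.87 to 35.1 in control liver. CPM values, with library size and TMM factors taken into account within a tissue, serve for comparisons between libraries. Deposited TPM, which also corrects for gene length, serves for levels of different genes. Markers of late spermatocytes summed to 8465 to 8761 CPM over the 6 testis libraries, against 115.7 to 152.8 CPM in brain and 10.15 to 13.55 CPM in liver. Neuron markers summed to 9265 to 10820 CPM in brain and hepatocyte markers to 69930 to 90670 CPM in liver, against at most 178.7 and 3.901 CPM in testis. In testis TPM, a short annotated small RNA gene, Gm23935, took 11.4, 16.7 and 2.74% of the total in the 3 stress libraries and 2.73, 7.58 and 6.09% in the 3 control libraries, which lowers all other TPM values of a library by that share.

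Stress testis replicate 2 stood apart from the other 5 testis libraries, and for most members the testis results are given with and without it. Fold changes of other named genes and of the marker lists in testis all include stress replicate 2. In that library transcripts poor in G and C had low counts and transcripts rich in them had high counts. Over all tested genes, the median of log2(CPM + 0.1) minus the control mean was -0.58 in the lowest of 10 classes of GC content and 0.44 in the highest. In the other 5 testis libraries the lowest class had medians between -0.10 and 0.04. The meiotic prophase genes are poor in G and C, with a median transcript GC content of 44.1% against 49.5% over 19756 tested genes, and 13 of the 33 lie in the lowest class, at or under 41.4%.

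To show GC content in sequence, 120 coding bases are printed for Sycp1 and Hormad1, the 2 lowest members in stress testis replicate 2. Syce3 and Rec8 stand beside them as 2 that were not low. In that library Sycp1 deviated by -3.34 and Hormad1 by -2.63. Tex12 and Sycp3, at 34.3% over the transcript no richer in G and C, deviated by only -1.12 and -0.76. The print therefore shows composition only. Each stretch was chosen for a GC content close to that of its whole coding sequence, which is 34.5% in Sycp1, 35.8% in Hormad1, 50.4% in Syce3 and 56.9% in Rec8. Capitals mark G and C, the strand is the coding one, and the transcripts are those of GENCODE mouse release M21.
Sycp1: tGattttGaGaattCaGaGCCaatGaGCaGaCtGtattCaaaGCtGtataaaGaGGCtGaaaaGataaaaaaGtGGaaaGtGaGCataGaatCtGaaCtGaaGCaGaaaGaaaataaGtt
Hormad1: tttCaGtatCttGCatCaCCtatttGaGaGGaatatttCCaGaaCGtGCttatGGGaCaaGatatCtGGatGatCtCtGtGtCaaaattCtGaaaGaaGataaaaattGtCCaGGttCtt
Syce3: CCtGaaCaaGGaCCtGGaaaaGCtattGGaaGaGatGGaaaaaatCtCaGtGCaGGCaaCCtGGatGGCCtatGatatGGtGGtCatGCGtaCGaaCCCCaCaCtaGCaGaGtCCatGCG
Rec8: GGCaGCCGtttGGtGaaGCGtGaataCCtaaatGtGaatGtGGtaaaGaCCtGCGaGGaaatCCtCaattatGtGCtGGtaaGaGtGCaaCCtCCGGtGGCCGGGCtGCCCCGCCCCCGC

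The promoters show the reverse composition. RefSeq windows of build GRCm38.p6, from 250 bases before to 50 bases after the transcript start, were at hand for 28 of the 33 genes. They held a median of 18 CpG dinucleotides and 59.8% G and C, against 7 and 52.7% over 27025 genes. The letters CACGTG stood in 7 of these 28 (25%), against 8.09% of all genes, and GCGGGAA stood in 10 (35.7%), against 5.29%. Both strands were searched, CACGTG reads the same on both, and matches to the 2 motifs can share at most 1 base. The 7 genes with CACGTG are Hormad1, Rnf212, Stag3, Syce2, Sycp1, Sycp3 and Tex12, and all of these except Sycp1 also hold GCGGGAA. As background, such letters are bound by MGA and E2F6, subunits of a Polycomb complex known to keep germ line genes silent in mouse somatic cells. Below are the windows of Hormad1 (GRCm38.p6 chr3:95559427-95559726, plus strand), Sycp3 (chr10:88459337-88459636, plus strand) and Sycp1 (chr3:102936051-102936350, minus strand), shown because they belong to abundant members and hold CACGTG, which in Hormad1 and Sycp3 stands with GCGGGAA and in Sycp1 alone. Matches are in capitals. A match is a description of the letters only.
Hormad1: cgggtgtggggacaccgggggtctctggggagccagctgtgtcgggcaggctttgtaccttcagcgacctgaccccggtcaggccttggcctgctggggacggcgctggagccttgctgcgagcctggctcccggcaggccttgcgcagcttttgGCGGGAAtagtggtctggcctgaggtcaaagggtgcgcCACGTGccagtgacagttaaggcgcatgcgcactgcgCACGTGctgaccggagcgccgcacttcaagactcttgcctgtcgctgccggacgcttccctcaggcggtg
Sycp3: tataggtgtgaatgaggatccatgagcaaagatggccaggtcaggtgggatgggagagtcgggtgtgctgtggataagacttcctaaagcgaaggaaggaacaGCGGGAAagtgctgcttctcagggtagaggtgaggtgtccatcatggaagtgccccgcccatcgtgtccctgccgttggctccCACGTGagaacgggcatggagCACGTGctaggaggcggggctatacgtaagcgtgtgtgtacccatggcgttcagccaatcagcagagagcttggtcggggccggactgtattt
Sycp1: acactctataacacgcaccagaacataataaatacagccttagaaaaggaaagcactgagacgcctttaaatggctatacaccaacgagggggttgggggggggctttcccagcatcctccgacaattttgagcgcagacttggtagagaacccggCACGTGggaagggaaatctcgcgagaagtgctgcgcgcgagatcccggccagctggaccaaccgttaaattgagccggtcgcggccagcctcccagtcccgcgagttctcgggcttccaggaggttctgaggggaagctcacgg

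In control testis the genes that build the synaptonemal complex, its axis and the cohesin ring held the 7 highest levels among the members. Syce1 (ENSMUSG00000025480), a central element protein, led with 668 ± 86.3 TPM (mean ± SD, n = 3). The cohesin subunit Stag3 (ENSMUSG00000036928) had 233 ± 7.1 TPM, its partner Smc1b 227 ± 17.1 TPM and the axis protein Sycp2 206 ± 18.5 TPM, so that neighbours in this order differed by little more than 1 SD. Sycp1, the transverse filament that spans the complex, had 188 ± 17.6 TPM, Sycp3 159 ± 14.3 TPM and Hormad1 156 ± 28.5 TPM. Sycp3 and Hormad1 did not differ beyond their spread.

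Recombination factors came below these 7. Psmc3ip, which with Mnd1 stimulates the meiotic recombinase, was the highest of them at 127 ± 7.77 TPM. It shares exonic sequence with Mlx on the opposite strand, which averaged 178 counts in control testis. Spo11, the enzyme that makes the breaks, had 53.4 ± 3.38 TPM, and Dmc1, the meiotic recombinase itself, 19.7 ± 1.1 TPM. Mnd1 had only 6.93 ± 2.07 TPM, far under its partner. The crossover factors Msh4 and Msh5, which form 1 complex, were within a factor of 1.5 of each other at 10.6 ± 0.10 and 7.67 ± 0.73 TPM. At the low end stood Prdm9, the histone methyltransferase that marks sites of recombination, with 3.999 ± 0.41 TPM, and Mei4, needed for break formation, with 0.33 ± 0.087 TPM. Rnf212 had 26.2 ± 8.45 TPM, but its deposited length is only 288 bases and its counts are few, 3.03 ± 1.02 CPM.

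Set against the other tissues, the group was read mainly in testis. The median over the 33 genes was 28.1 TPM in control testis, 0.811 TPM in control brain and 0.0366 TPM in control liver, and 32, 16 and 7 genes reached 1 TPM. Control testis exceeded control brain for 32 of the 33 genes (edgeR quasi-likelihood test, Benjamini-Hochberg adjusted p under 0.05), where 47.0% of all 21087 genes tested were higher, and 1 was lower (41.2% of all genes). The median log2 difference, testis minus brain, was 6.48 over the members and 0.20 over all genes. Against control liver, 30 of 33 were higher in control testis, where 54.0% of all 20079 genes tested were higher, and 2 were lower (34.5% of all genes), with a median log2 difference of 7.70 over the members and 0.93 over all genes. The median against liver is 7.65 with genes at 0 liver counts set to their bound. With the deposited TPM in limma in place of counts, the medians over all genes shifted to -0.49 against brain and 1.92 against liver, and 32 and 33 members were called.

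Several members had no counts outside testis at this depth. Stra8, Sycp1 and Rnf212 had 0 counts in all 6 brain libraries, and Hormad1 had 0 in the 3 control ones. A floor of 3 counts over the 3 control brain libraries makes Sycp1 at least 8684-fold higher in control testis, Hormad1 at least 3631-fold, Stra8 at least 341-fold and Rnf212 at least 101-fold. In liver Hormad1, Mei4, Tex15, Hfm1, Rnf212 and Tex11 had 0 counts in all 6 libraries, and 9 members had 0 in the control ones. On the same floor Syce1 was at least 12950-fold and Tex15 at least 5869-fold higher in control testis than in control liver. Syce1 lies beside Cyp2e1, which averaged 206000 counts in control liver, where Syce1 had 0 counts.

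**Figure D1:**
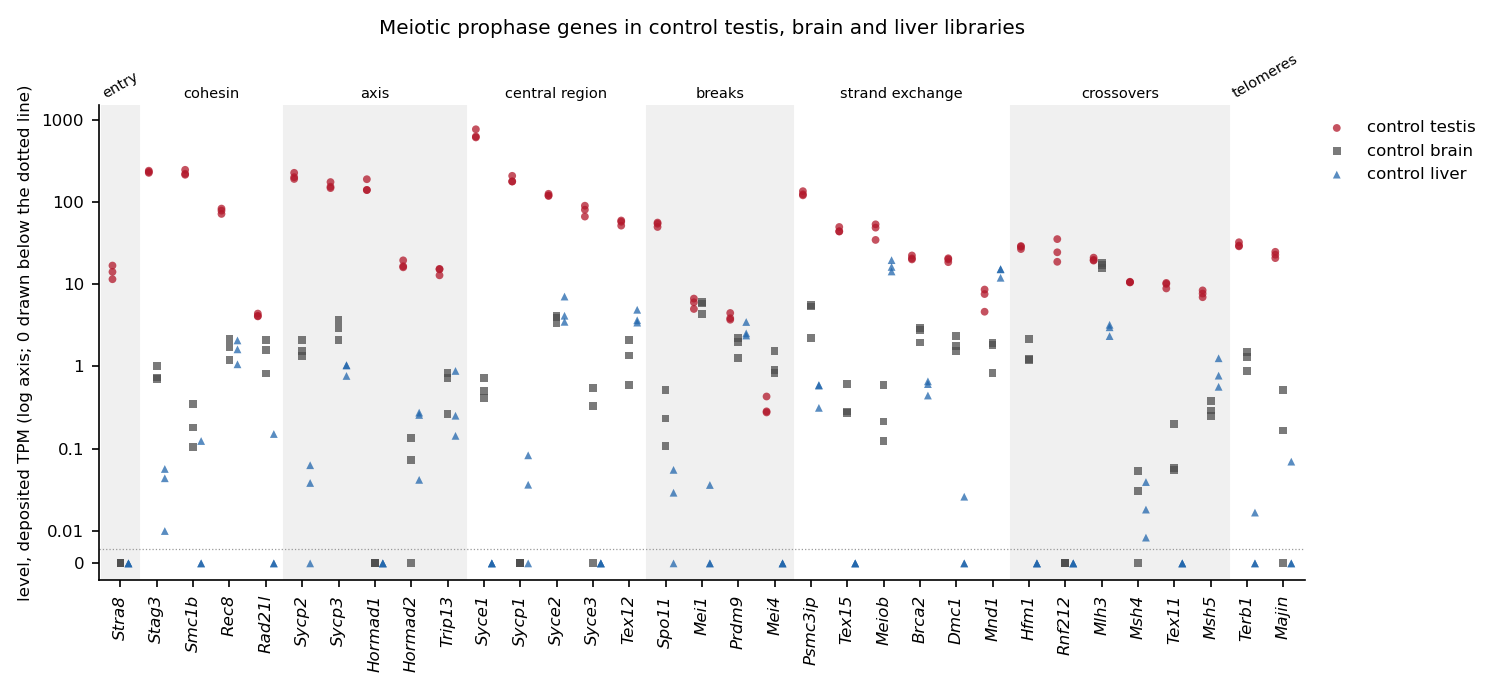
Deposited TPM (log axis, with 0 drawn below the dotted line) of 33 meiotic prophase genes in 3 control libraries each of testis, brain and liver, grouped by role and sorted by testis level. Testis points lie above brain and liver points for most genes. Mei4 is lower in testis than in brain, Mnd1 is higher in liver, and Mlh3 and Mei1 lie close together in testis and brain.

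A few members departed from this pattern. Mlh3, the crossover endonuclease subunit that also acts in mismatch repair, had 20.03 ± 0.88 TPM in control testis and 16.9 ± 1.08 TPM in control brain, and its log2 difference on counts was 0.95 ± 0.096 (SE, edgeR adjusted p = 1.24e-05). Mei1, needed for break formation, had 5.89 ± 0.85 TPM in control testis and 5.41 ± 0.91 TPM in control brain (0.83 ± 0.17 on counts, edgeR adjusted p = 0.00157), and this call was lost with TPM, at 0.12. Mei4 was lower in control testis, with 20, 13 and 14 counts against 37, 33 and 70 in control brain. Its log2 difference of -1.03 ± 0.39 (edgeR adjusted p = 0.0315) fell short of the threshold with DESeq2, at -0.87, and with DESeq2 size factors in edgeR. It also fell short without control brain replicate 3, at -0.69, and without control testis replicates 2 or 3, at -0.91 and -0.88.

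In liver Mnd1, Meiob and Prdm9 carried counts of the same order as in testis. Mnd1, the partner of Psmc3ip, had 85, 45 and 82 counts in control testis, against 248, 233 and 168 in control liver, a log2 difference of -2.17 ± 0.28 (edgeR adjusted p = 4.90e-05). Every control testis library lay below every control liver library. Prdm9 had 217, 177 and 205 counts in control testis and 277, 191 and 164 in control liver, so the groups overlapped on raw counts. Its log2 difference of -0.63 ± 0.23 (edgeR adjusted p = 0.0259) turned to 0.52 with TPM. It missed the threshold with DESeq2, at -0.45, and with DESeq2 size factors in edgeR. It also missed it without control liver replicate 1, at -0.38, and without control testis replicates 2 or 3, at -0.50 and -0.52. Meiob, a protein of meiotic recombination that binds single-stranded DNA, had 1029, 655 and 1026 counts in control testis and 451, 486 and 536 in control liver. On the TMM scale its difference was 0.32 ± 0.18 and did not pass (edgeR adjusted p = 0.115), while it passed with DESeq2, at 0.50 (adjusted p = 0.0262), with DESeq2 size factors in edgeR, at 0.47, without control testis replicate 2, at 0.55, and on the TPM scale, at 1.43.

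Some members with liver counts lie beside or over genes that are abundant in liver, and the strand setting of the counting was not given in the sources used here. Meiob lies next to Hagh on the same strand, and Hagh averaged 9888 counts in control liver. Syce2, another central element gene with liver counts, overlaps introns of Gcdh on the opposite strand, which averaged 20620 counts there. Tex12 overlaps introns of Il18, with 358 counts, and Sycp3 shares exonic sequence with Chpt1 on the opposite strand, with 5661 counts. Mnd1 lies next to Trim2 on the same strand, with 620 counts. The part of these neighbours in the members' liver counts was not tested.

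Stress was compared with control in testis to ask whether the transcripts of meiotic prophase shift under chronic restraint. No member passed the threshold: 0 of 33 were called with edgeR's quasi-likelihood test, where 0.0201% of all 19915 genes tested were called, and 0 with DESeq2. The smallest adjusted p among the members was 0.422. At an unadjusted p under 0.05 stood 6 of 33 with edgeR (11.7% of all genes). With DESeq2 it was 7 of 33, where 2352 of the 31683 genes with counts had one. The 6 with edgeR were Tex11, Tex15, Brca2, Hfm1 and Smc1b with values below 0 and Syce3 above 0. With 1 library left out, that count was 1 without control replicate 1 (7.44% of all genes), 3 without control replicate 2 (7.41%), 1 without control replicate 3 (6.60%), 4 without stress replicate 1 (11.0%), 7 without stress replicate 2 (9.66%) and 12 without stress replicate 3 (16.3%). It was 0 in the fit of all 18 libraries (8.53%), 9 with no filter on low counts (10.1%) and 10 with the replicate block (12.9%).

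Most members had values below 0 in stress testis, where errors after log2 values are SE of the fit. Their median log2 fold change, stress minus control, was -0.17 against 0.01 over all genes, and 26 of 33 were below 0, against 47.9% of all genes. All 3 stress libraries lay below all 3 control libraries for 12 members (10.7% of all genes) and above them for 1, Msh5 (10.3% of all genes). Without stress replicate 2, 12 members had both remaining stress libraries below control (14.1% of all genes) and 2, Msh5 and Mnd1, had both above (13.7%). The 12 are the same members and could not drop out, since libraries that all lie below control still do with 1 left out. Their number therefore does not test how far the lower values rest on stress replicate 2, and no further member joined them. The median without that library was -0.09, with 25 below 0. With counts adjusted for GC content in each library, an alternative chosen after seeing the data, the median was -0.05, 23 were below 0, 4 had an unadjusted p under 0.05 (11.3% of all genes) and 0 were called with edgeR.

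**Figure D2:**
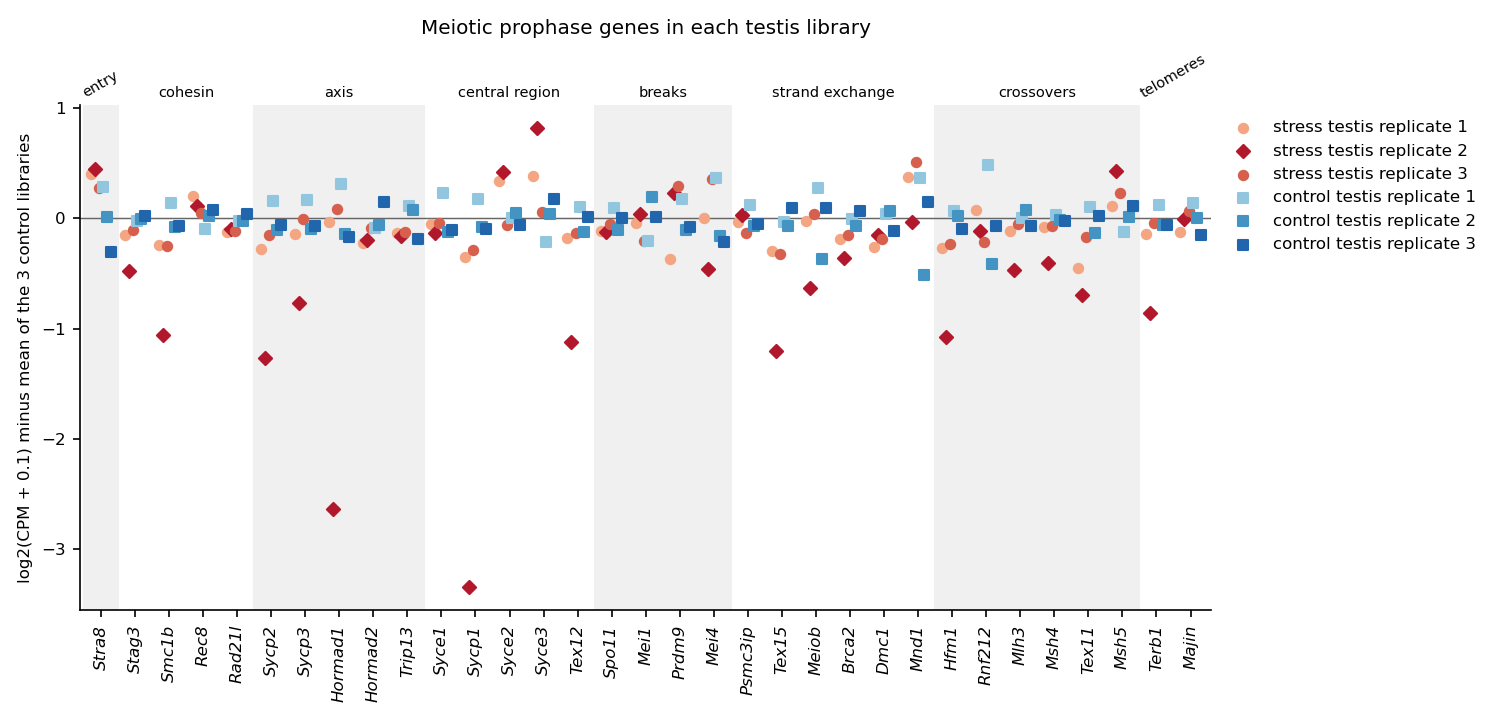
Each point is 1 testis library, as log2(CPM + 0.1) minus the mean of the 3 control libraries, for 33 meiotic prophase genes grouped by role. Stress libraries stand left of control libraries within a gene. Stress replicate 2 (diamonds) reaches -3.34 for Sycp1 and -2.63 for Hormad1 and 0.82 for Syce3, and the other 5 libraries stay within 0.6 of 0.

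Entry into meiosis is represented by Stra8, the retinoic acid target that starts the meiotic programme. It had 13.4, 13.8 and 12.3 CPM in stress testis and 12.4, 10.2 and 8.18 CPM in control testis. The groups overlapped narrowly, with 1 control library above 1 stress library, and the difference of 0.36 ± 0.16 on the log2 scale did not pass (edgeR adjusted p = 0.425). Without stress replicate 2 it was 0.32 ± 0.17.

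Cohesin holds sister chromatids together, and spermatocytes use their own subunits. Their median log2 fold change in testis was -0.17 with 3 of 4 below 0, and -0.13 with 3 of 4 below 0 without stress replicate 2. Smc1b had 311, 176 and 309 CPM in stress testis and 406, 348 and 352 CPM in control testis. All stress libraries were lower and replicate 2 by far the lowest, and the log2 fold change was -0.47 ± 0.19 (edgeR adjusted p = 0.422) and -0.25 ± 0.084 without replicate 2. Stag3 had 484, 386 and 500 CPM in stress testis and 528, 536 and 544 CPM in control testis, again without overlap, with -0.23 ± 0.11 (edgeR adjusted p = 0.428) and -0.13 ± 0.067 without replicate 2. Of the kleisins, which close the ring, Rec8 overlapped between the groups and Rad21l did not. Rec8 lay at 88.4 to 98.7 CPM in stress testis and 80.2 to 90.3 CPM in control testis, and Rad21l at 2.56 to 2.60 CPM in stress testis and 2.74 to 2.88 CPM in control testis, with values of 0.12 ± 0.090 and -0.12 ± 0.19.

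The 5 axis genes were all below 0, with a median log2 fold change of -0.27, and without stress replicate 2 it was -0.14 with 4 below 0. Sycp2, which with Sycp3 forms the lateral element, had 407, 205 and 445 CPM in stress testis and 551, 458 and 473 CPM in control testis. All stress libraries lay below all control libraries, and the log2 fold change was -0.49 ± 0.24 (edgeR adjusted p = 0.441), and -0.22 ± 0.092 without replicate 2. Sycp3 had 72.8, 47.2 and 80.0 CPM in stress testis and 90.05, 75.03 and 76.7 CPM in control testis. Here stress replicate 3 lay among the control libraries, and the value of -0.27 ± 0.18 (edgeR adjusted p = 0.519) was -0.08 ± 0.097 without replicate 2 and turned to 0.15 with the GC adjustment.

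Hormad1, which marks unsynapsed axes, had 105, 17.3 and 114 CPM in stress testis and 133, 97.4 and 95.6 CPM in control testis. Only replicate 2 was low, 6.19 times lower than the control mean taken on the log2 scale, and replicates 1 and 3 lay inside the control range. The log2 fold change was -0.46 ± 0.52 (edgeR adjusted p = 0.697) with all libraries and 0.01 ± 0.13 without replicate 2, so the sign rests on that library. Its relative Hormad2 and the ATPase Trip13, which takes HORMAD proteins off the axis, had values of -0.17 ± 0.12 and -0.14 ± 0.13. In replicate 2 they deviated from the control mean by -0.19 and -0.16 on the log2 scale.

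Within the central region of the synaptonemal complex, Sycp1 gave the lowest value of all members. It had 204, 25.4 and 212 CPM in stress testis and 292, 245 and 242 CPM in control testis. Replicate 2 was 10.2 times lower than the control mean taken on the log2 scale, and replicates 1 and 3 were also below every control library. The log2 fold change was -0.82 ± 0.57 (edgeR adjusted p = 0.538) with all libraries and -0.33 ± 0.092 (edgeR adjusted p = 0.347) without replicate 2, smaller in size and tighter.

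The central element genes that sit with Sycp1 in the same structure differed among themselves. Syce1 had 377, 356 and 380 CPM in stress testis and 457, 359 and 362 CPM in control testis. These overlapped, and the value of -0.08 ± 0.11 (edgeR adjusted p = 0.751) turned to 0.04 without control replicate 1, the highest library. Syce3 had 22.8, 30.8 and 18.2 CPM in stress testis and 14.98, 17.9 and 19.7 CPM in control testis, highest in stress replicate 2, with 0.45 ± 0.19 (edgeR adjusted p = 0.422) and 0.22 ± 0.14 without it. Syce2 gave 0.25 ± 0.13 and, without that library, 0.15 ± 0.11. Tex12, whose transcript is as poor in G and C as that of Sycp3, had 6.35 CPM in stress replicate 2 and 12.3 and 12.7 CPM in the other stress libraries, against 12.8 to 14.98 CPM in control testis, with -0.41 ± 0.24 and -0.16 ± 0.12 without that library.

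Genes for making breaks had a median log2 fold change of -0.04, with 3 of 4 below 0, and -0.05 without stress replicate 2. Spo11 had 77.4, 77.0 and 81.3 CPM in stress testis and 89.8, 78.3 and 84.2 CPM in control testis, and the difference of -0.10 ± 0.088 did not pass (edgeR adjusted p = 0.621). Mei1, Prdm9 and Mei4 had values of -0.08 ± 0.15, 0.08 ± 0.20 and -0.01 ± 0.42, and Mei4 rests on 51 counts over the stress and 47 over the control libraries. Without stress replicate 2, Prdm9 turned to -0.01 and Mei4 to 0.20, and Mei1 was -0.14.

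Strand exchange genes had a median log2 fold change of -0.20 with 5 of 6 below 0, and -0.13 with 5 below 0 without stress replicate 2. Tex15, needed to bring recombinases to the breaks, had 144, 76.7 and 141 CPM in stress testis and 173, 169 and 189 CPM in control testis. No stress library reached a control library, with -0.55 ± 0.21 (edgeR adjusted p = 0.422), and -0.32 ± 0.076 (edgeR adjusted p = 0.264) without replicate 2. Brca2, which loads the recombinases, had 79.2, 70.2 and 81.2 CPM in stress testis and 90.01, 86.3 and 94.7 CPM in control testis, also without overlap, with -0.23 ± 0.093 (edgeR adjusted p = 0.422) and -0.18 ± 0.077 without replicate 2. Dmc1 lay at 14.5 to 15.6 CPM in stress testis and 16.0 to 18.2 CPM in control testis, -0.20 ± 0.11. Psmc3ip had 90.4, 94.3 and 84.2 CPM in stress testis and 100.3, 88.2 and 89.1 CPM in control testis. Its value of -0.05 ± 0.093 (edgeR adjusted p = 0.839) turned to 0.01 without control replicate 1. Mnd1 and Meiob had 0.27 ± 0.28 and -0.20 ± 0.21, and 0.41 ± 0.27 and -0.02 ± 0.16 without stress replicate 2.

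Crossover genes had a median log2 fold change of -0.19 with 5 of 6 below 0, and -0.10 with 5 below 0 without stress replicate 2. Among them Tex11 and Hfm1 had the smallest p. Tex11, an X-linked gene required for crossing over in males, had 10.4, 8.75 and 12.6 CPM in stress testis and 15.3, 12.9 and 14.4 CPM in control testis, with -0.43 ± 0.16 (edgeR adjusted p = 0.422) and -0.31 ± 0.14 without replicate 2. Hfm1, a helicase of crossover formation, had 62.4, 35.5 and 64.0 CPM in stress testis and 78.9, 76.3 and 70.3 CPM in control testis, with -0.48 ± 0.20 (edgeR adjusted p = 0.422) and -0.25 ± 0.082 without replicate 2. In both genes every stress library lay below every control library. Of the 2 partners Msh4 and Msh5, Msh4 had every stress library below control, -0.18 ± 0.12, and Msh5 every stress library above control, 0.26 ± 0.13. Without stress replicate 2 Msh4 was -0.08 and Msh5 was 0.17. Mlh3 and Rnf212 had -0.20 ± 0.12 and -0.13 ± 0.26, and -0.09 and -0.12 without that library. Of the telomere attachment genes, Terb1 had 25.04 CPM in stress replicate 2 and 41.3 and 44.3 CPM in the other stress libraries, against 43.6 to 49.5 CPM in control testis, with -0.31 ± 0.19 and -0.095 ± 0.093 without that library. Majin had -0.02 ± 0.13.

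**Figure D3:**
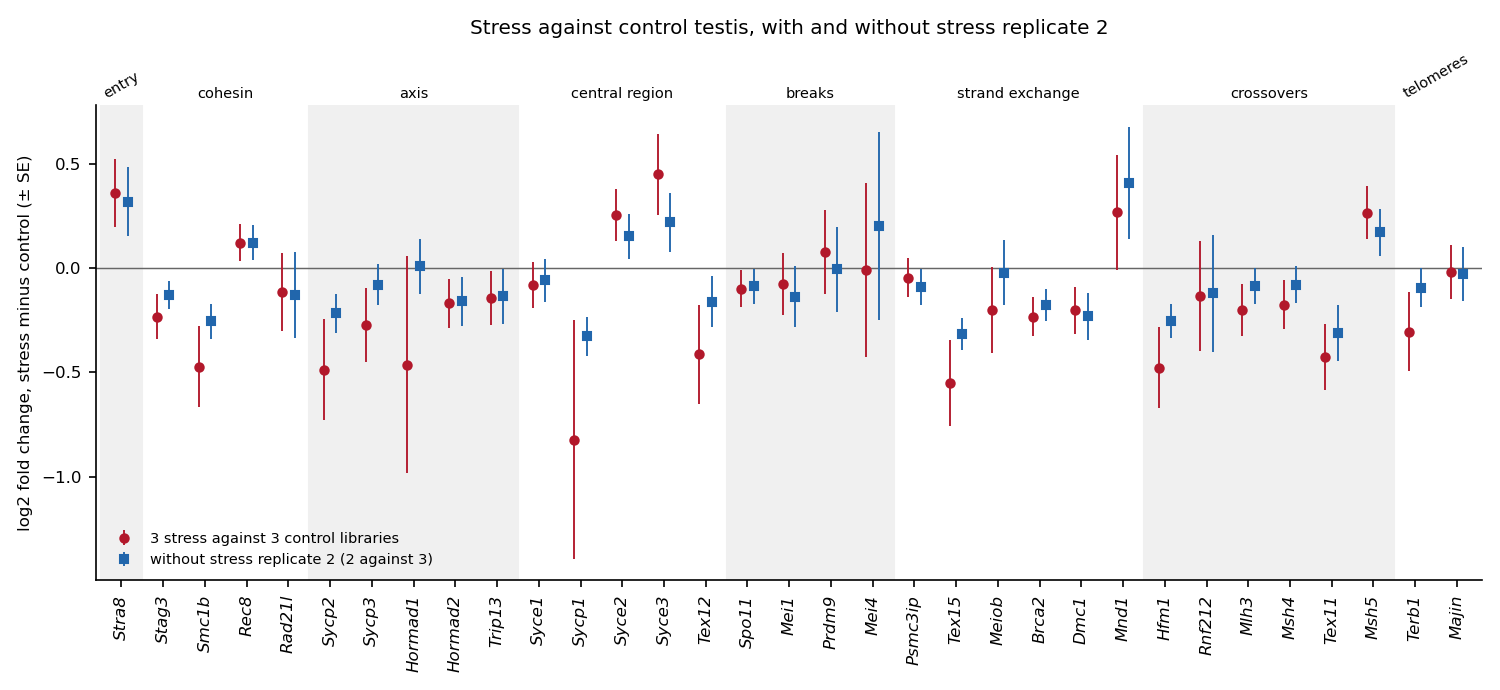
Log2 fold change, stress minus control testis, with its SE, for 33 meiotic prophase genes, from 3 stress against 3 control libraries (circles) and without stress replicate 2 (squares). Leaving that library out brings Hormad1 to 0.01 and Sycp1 to -0.33 and narrows their errors.

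The low values in stress replicate 2 followed transcript composition among the members. Of the 13 members in the lowest GC class, which span 34.3 to 40.9% G and C, 11 were more than 0.5 below control on the log2 scale, with a median of -1.06. Of all genes in that class 58.0% were that low. Among the other 20 members, at 42.1 to 56.7%, 0 were that low, with a median of -0.07. The share of all genes above the lowest class that were that low was not computed. Across the 33 genes, Spearman's rho between GC content and the deviation from control was 0.888 in that library, 0.605 in stress replicate 1 and 0.346 in stress replicate 3, against -0.295, 0.426 and 0.15 in the control libraries. These describe genes within 1 library, which are not independent replicates. Over all 19756 genes rho was 0.556 in stress replicate 2, 0.256 in stress replicate 1 and 0.145 in stress replicate 3. In the control libraries it was -0.201, 0.154 and 0.105. Values without stress replicate 2 are therefore not free of a GC trend. GC content moved with the members' values, and its part in the difference between stress and control was not tested beyond the adjusted fit above.

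Within the lowest GC class of 1976 genes the members still spread widely in stress replicate 2. The class as a whole had a median of -0.58 with quartiles at -0.97 and -0.23, and 58.0% of its genes were more than 0.5 below control. Sycp1 was the gene with rank 14 from the lowest and Hormad1 rank 34, both outside the range of the other members. Sycp2, Tex15, Tex12, Hfm1 and Smc1b lay between ranks 280 and 416, and Terb1, Sycp3, Tex11 and Meiob between 604 and 911. Mei4 and Rad21l, both with few counts, were above the class median. These ranks were computed after the values of that library had been seen.

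**Figure D4:**
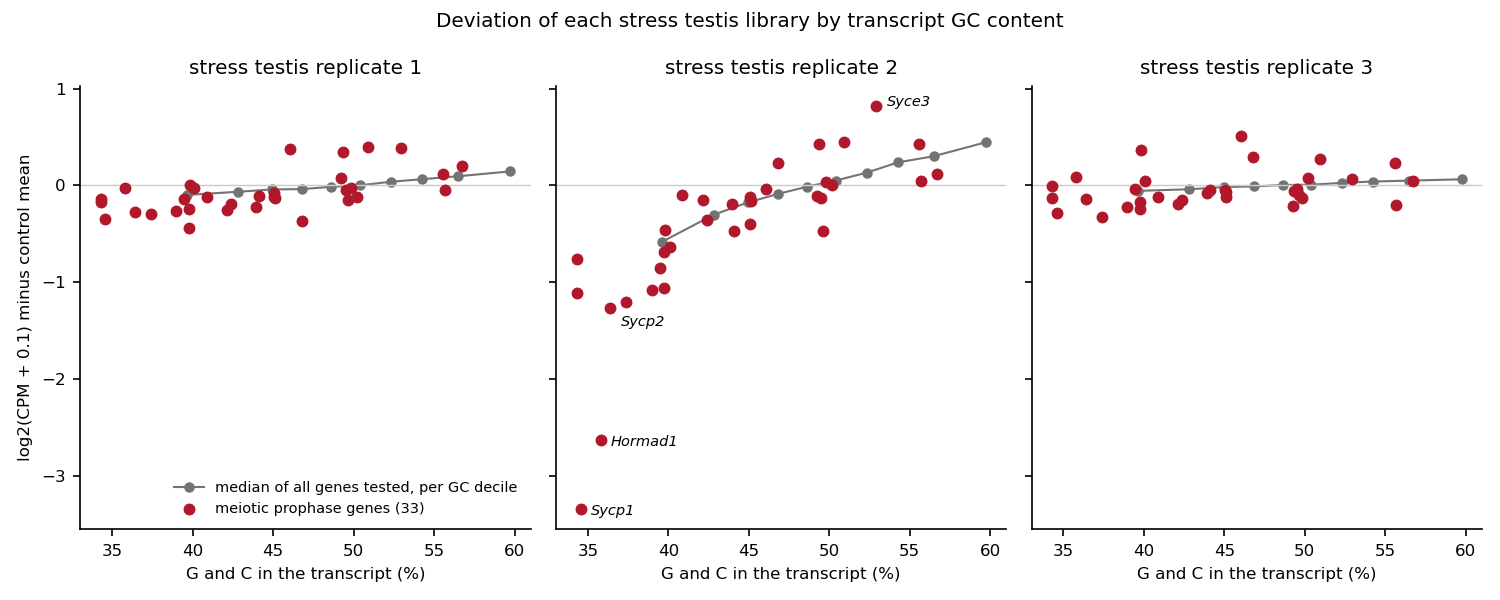
Deviation from the control mean, as log2(CPM + 0.1), against the percentage of G and C in the transcript, for 33 meiotic prophase genes (red) and the medians of all tested genes in 10 GC classes (grey), in stress testis replicates 1, 2 and 3. In replicate 2 the grey line climbs from -0.58 to 0.44 and the red points fall with it to -3.34 for Sycp1, while it stays between -0.10 and 0.14 in replicate 1 and between -0.06 and 0.06 in replicate 3.

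Other genes known in meiosis were read beside the members. Of 42 such genes 39 had a row and all 39 were tested. Of these 0 were called with edgeR (0.0201% of all genes) and 0 with DESeq2. With edgeR 1 was higher and 5 were lower at an unadjusted p under 0.05, where 11.7% of all genes stood in either direction. The median log2 fold change was -0.07, against 0.01 over all genes, and 28 were below 0, against 47.9% of all genes. Atm, a kinase that responds to DNA breaks, had 12.3, 12.6 and 14.4 CPM in stress testis and 17.9, 16.9 and 16.8 CPM in control testis, -0.39 ± 0.12 (edgeR adjusted p = 0.422). Its stress libraries, replicate 2 among them, lay below every control library at nearly the same level. Rad51ap2 had -0.71 ± 0.25 and Topbp1, an activator of checkpoint kinases, -0.25 ± 0.095, at the same adjusted p. Rad51ap2, at 37.5% G and C, lies in the lowest GC class. It had 5.32, 2.86 and 5.76 CPM in stress testis, lowest in replicate 2, and 8.37, 7.915 and 6.52 CPM in control testis.

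Marker lists of the germ and somatic cells of testis gave values beside these. With edgeR 0 genes of any list were called (0.0201% of all genes). At an unadjusted p under 0.05 stood 3 of 14 tested spermatogonial, 0 of 12 late spermatocyte, 2 of 16 spermatid, 1 of 12 Sertoli, 5 of 10 Leydig and 4 of 9 macrophage markers, against 11.7% of all genes. DESeq2 called 1 spermatogonial, 2 Leydig and 1 macrophage marker and 0 of the late spermatocyte, spermatid and Sertoli markers, where 60 of 22456 genes were called. The summed prophase genes had 2933, 2056 and 2981 CPM in stress testis and 3495, 3108 and 3165 CPM in control testis, without overlap and lowest in stress replicate 2. Most of this sum came from Stag3, Sycp2, Syce1, Smc1b and Sycp1, with control testis means of 536, 494, 393, 368 and 260 CPM. Of these Sycp2, Smc1b and Sycp1 lie in the lowest GC class. Late spermatocyte markers summed to 8472 to 8641 CPM in stress testis and 8465 to 8761 CPM in control testis, so these ranges overlapped. Such a sum follows its most abundant genes. By gene, the median log2 fold change of the late spermatocyte list was -0.07, with 9 of 12 below 0, against 47.9% of all genes. Spermatogonial markers summed to 855.7 to 898.2 CPM in stress testis and 818 to 824.2 CPM in control testis, most of it from Dmrtb1, at 709.7 to 751.9 CPM in stress testis and 676.9 to 683.3 CPM in control testis. The median log2 fold change of the spermatogonial list was -0.04, with 9 of 14 below 0, against 47.9% of all genes. Spermatid markers summed to 18930 to 19510 CPM in stress testis and 17250 to 18840 CPM in control testis. Sertoli cell markers summed to 1266, 1971 and 1268 CPM in stress testis and 1241 to 1339 CPM in control testis, and macrophage markers to 76.2, 108.1 and 75.7 CPM in stress testis and 72.8 to 76.7 CPM in control testis, both highest in stress replicate 2. The part of these cell types in the members' values was not tested.

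In brain the comparison of stress with control covered the 22 members that passed the filter on low counts, and 0 were called with edgeR, where 0.00566% of 17668 genes were called. DESeq2 called 0 members and 120 genes, of 16005 with an adjusted p. With it, 2 of the 30 members with counts and 1426 of the 27949 genes with counts had an unadjusted p under 0.05. At an unadjusted p under 0.05 stood 1 member with edgeR (7.54% of all genes). Mei1 was that member, with 6.50, 4.36 and 4.02 CPM in stress brain and 8.19, 8.45 and 6.32 CPM in control brain, -0.63 ± 0.23 (edgeR adjusted p = 0.613). The ranges just overlapped. Mlh3 had 26.5, 35.0 and 28.2 CPM in stress brain and 25.6, 27.3 and 29.8 CPM in control brain, 0.11 ± 0.12 (edgeR adjusted p = 0.864). Psmc3ip had 1.96, 2.36 and 2.71 CPM in stress brain and 1.19, 2.99 and 2.97 CPM in control brain, -0.03 ± 0.37 (edgeR adjusted p = 0.993).

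Liver had 13 members past the filter on low counts, and 0 were called with edgeR, where 1.63% of 14253 genes were called, and 0 with DESeq2. An unadjusted p under 0.05 was found for 2 with edgeR (17.2% of all genes). With DESeq2 it was found for 2 of the 27 members with counts and for 2534 of the 23250 genes with counts. DESeq2 called 819 genes, of 14231 with an adjusted p. The 2 with edgeR, Meiob and Tex12, also had all stress libraries below all control libraries (11.1% of all genes). Meiob had 10.1, 11.6 and 9.52 CPM in stress liver and 13.1, 14.5 and 16.6 CPM in control liver, -0.50 ± 0.16 (edgeR adjusted p = 0.142). Its neighbour Hagh had 0.07 ± 0.12. Tex12 had 23, 14 and 25 counts in stress liver and 39, 53 and 36 in control liver, -0.95 ± 0.40 (edgeR adjusted p = 0.264), and Il18, whose introns it overlaps, had -0.48 ± 0.19. Mnd1 had 4.32, 5.74 and 5.40 CPM in stress liver and 7.22, 6.93 and 5.21 CPM in control liver, -0.32 ± 0.21 (edgeR adjusted p = 0.476). Its neighbour Trim2 had a similar value, -0.34 ± 0.18. Syce2 had 5.22, 3.60 and 6.54 CPM in stress liver and 7.51, 4.25 and 3.41 CPM in control liver, 0.01 ± 0.33 (edgeR adjusted p = 0.99). Gcdh, whose introns Syce2 overlaps, had -0.16 ± 0.15.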

How the data were processed

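RNA was sequenced in 18 libraries made from total RNA with a stranded kit, per the labels' protocols, and the submitters' processing notes name mouse build mm39. Aligner, counting tool, strand setting and annotation were not given in the sources used here. Per the file headers, the authors deposited whole-number counts without normalization, beside TPM and FPKM. FPKM as deposited gave the gene lengths only. TPM as deposited sums to the same total in every library and served for levels between genes. Symbols for 34362 of 34932 gene identifiers came from GENCODE M21, a GRCm38 annotation, so no gene positions of the data are given.

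Counts were tested in R 4.3.3 with edgeR 4.0.16 (filterByExpr, TMM factors, quasi-likelihood test), within each tissue and between control testis and another control tissue. Benjamini-Hochberg adjustment ran over all genes tested, with a threshold of 0.05, and the test was tested on simulated data. The alternatives tried were DESeq2 1.42.0, edgeR with DESeq2 size factors, no filter, limma 3.58.1 on log2(TPM + 0.1), the replicate block, a fit of all 18 libraries, each library left out, and GC offsets from a lowess curve with a span of 0.2, added after seeing the data. GC content was that of a gene's longest protein-coding transcript, or of its longest one where none is coding.

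The members and the gene lists were chosen with earlier results of these data known. Per-library values follow a rule: the 8 members with the highest control testis TPM, the 6 with the smallest p in testis, the 3 highest in brain and in liver, and up to 3 genes of a marker list. Any other gene given by library was chosen after its values were seen.

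Libraries of a group are biological replicates per the series' design text. The chi-square over genes between 2 of them was 4.43 to 104 times its degrees of freedom, above counting error, so errors are SD between libraries or SE of the fit, and counting floors cover counting error only. Correlations of deviations between stress and control libraries of the same number were 0.305, 0.167 and 0.439 in brain, where the numbers were taken to pair the libraries, from these data and not from the labels. Sample codes recur in the 3 tissues, and whether these tissues come from the same animals is not stated.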

Additional observations from a re-analysis of the deposited data

How the results depend on the processing

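With 3 libraries a group, only large and regular changes can pass, and a p that misses the threshold does not show that a member did not change. No member was called in any stress comparison under any alternative run: the count stayed 0 in testis, brain and liver with edgeR, DESeq2, limma, the replicate block, the fit of all 18 libraries, each library left out and, in testis, the GC offsets. The members called were 32 to 33 between control testis and control brain and 31 to 33 between control testis and control liver. With the GC offsets the testis median of -0.17 became -0.0523, and with limma on TPM it became -0.2565, where all genes had -0.08. With each library left out it ranged from -0.2133 to -0.0898. The 4 genes called in testis were 60 with DESeq2, 25 with no filter, 0 with limma on TPM, 9 with the GC offsets and 0 to 21 with each library left out, with 21 without stress replicate 2, 1 without control replicate 1 and 0 without control replicate 3 or stress replicate 1.

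Same-numbered testis libraries had correlations of 0.0769, 0.0682 and -0.088, so their numbers were not taken to pair them, and not every library correlated best with its own number. The replicate block left 0 members called in testis, a median of -0.168 and 6 genes called. In brain, the numbers were taken to pair the libraries from their correlations alone, and the main test had no block. Adding the block there gave 0 members and 22 genes in place of 1. In liver (0.187, 0.0533 and -0.000873) the block gave 0 members and 475 genes in place of 232. Between control tissues it gave 32 members against brain and 32 against liver, and the call of Mei4 was lost at -0.99.

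Signs turned for 5 of the values rerun under every alternative. Sycp3 became 0.1527 in testis with the GC offsets, and Prdm9 became 0.5215 between control testis and control liver with limma on TPM. With each library left out, Syce1 ranged from -0.1446 to 0.0397, Hormad1 from -0.8313 to 0.0069 and Psmc3ip from -0.0898 to 0.0143. Over all 33 members, 3 turned sign in testis without stress replicate 2 (Hormad1, Mei4 and Prdm9) and 5 with the GC offsets (Sycp3, Mei4, Meiob at 0.01, Rad21l at 0.10 and Rec8 at -0.02). The cause was not tested. Of 304 fold changes of single members under alternatives, 283 kept their direction and their side of the threshold, 12 no longer passed it, 4 newly passed it and 5 turned sign.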

Other observations

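Leydig cells, the testosterone source of the testis, had a mixed marker list in stress testis. Of its 10 genes 6 were below 0, against 47.9% of all genes, and all 10 summed to 447.8, 618.3 and 466.4 CPM in stress testis and 502.1 to 544.4 CPM in control testis, highest in stress replicate 2. With edgeR 0 were called (0.0201% of all genes) and with DESeq2 2, where 60 of 22456 genes were called. With edgeR at an unadjusted p under 0.05 1 was higher and 4 were lower, where 11.7% of all genes stood in either direction. The median was -0.23 on the log2 scale against 0.01 over all genes. Star, which carries cholesterol into mitochondria for steroid synthesis, had 34.01, 41.0 and 48.6 CPM in stress testis and 60.7, 65.6 and 106 CPM in control testis, -0.91 ± 0.21 (edgeR adjusted p = 0.422). Lhcgr, the luteinizing hormone receptor, had 1.58, 0.757 and 2.06 CPM in stress testis and 3.75, 3.47 and 3.93 CPM in control testis, -1.34 ± 0.32 (edgeR adjusted p = 0.422). Stress libraries lay below all control libraries in both genes, replicate 2 lowest for Lhcgr and not for Star. DESeq2 called both, with adjusted p of 0.00761 for Star and 0.0457 for Lhcgr. The gene that was higher at an unadjusted p under 0.05 was Insl3, a peptide hormone, with 106, 271 and 86.2 CPM in stress testis and 79.8, 77.7 and 61.6 CPM in control testis, 1.08 ± 0.37 (edgeR adjusted p = 0.422).

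Of 9 macrophage markers 0 were called with edgeR (0.0201% of all genes) and 1 with DESeq2, Cx3cr1, where 60 of 22456 genes were called. An edgeR p under 0.05 before adjustment was found for 3 that were higher and 1 that was lower, against 11.7% of all genes in either direction. Cx3cr1, a chemokine receptor, had 8.58, 7.995 and 7.40 CPM in stress testis and 5.12, 4.16 and 4.41 CPM in control testis, 0.81 ± 0.16 (edgeR adjusted p = 0.422), with all stress libraries above all control libraries. C1qa, a complement subunit, had 6.09, 14.1 and 5.58 CPM in stress testis and 4.47, 4.41 and 4.67 CPM in control testis, 0.92 ± 0.33 (edgeR adjusted p = 0.422), highest by far in stress replicate 2. The lower gene was Mrc1, the mannose receptor, with 32.4, 30.04 and 36.2 CPM in stress testis and 40.7, 40.2 and 37.5 CPM in control testis, -0.26 ± 0.10 (edgeR adjusted p = 0.422). Insl3 and Mrc1 were named after their values were seen.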
